A study of Sus scrofa with 4 samples.

Results

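CDX2, GATA2, GATA3, TEAD4 and TFAP2C are transcription factors of the trophectoderm, the outer epithelium of the blastocyst that goes on to form the placenta. They were chosen by gene symbol in the platform's probe-to-gene table, and every probe with one of these 5 symbols was taken: 11 of the 43794 probes on the array. The table names 11909 genes in all, after symbols were updated. CDX2 had 3 probes, GATA2 1, GATA3 1, TEAD4 4 and TFAP2C 2. Probes of 1 gene are numbered below from the brightest to the dimmest and are readings of the same RNA samples, not replicates. Whether they read the same transcripts of the gene was not tested.

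The lineage factors form a short cascade, worked out mainly in the mouse. In the outer cells of the morula the Hippo kinases are inactive, the coactivators YAP1 and WWTR1 enter the nucleus, and there they switch on target genes through TEAD4. Among these targets are CDX2, a homeobox factor that represses the inner cell mass programme in the mouse, and GATA3, a zinc finger factor. GATA2 is a related zinc finger factor of trophoblast, and TFAP2C, of the AP-2 family, is required for trophectoderm upkeep.

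Transcripts were measured in porcine (Sus scrofa) blastocysts on 4 arrays with a colour for each of 2 conditions. In the coculture condition the cumulus-oocyte complexes, oocytes with their cumulus cells, had matured together with porcine luteal cells, which make up the corpus luteum and secrete progesterone. In the control condition they had matured without them. Per the labels there were 4 pools of 10 blastocysts, collected on days 7 and 8, and the arrays are biological replicates 1 to 4. Each array held a coculture pool and a control pool. The labels do not give the day of a pool, nor say whether pools came from separate animals or cultures, so the p-values measure only the spread between these pools, which may be technical. The coculture RNA carried Cy5 on replicates 1 and 2 and Cy3 on replicates 3 and 4. The comparison asks whether the trophectoderm programme differs in blastocysts whose oocytes matured beside luteal cells.

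A spot was called above the detection limit when its raw intensity lay more than 2 SD over the average of the 153 negative controls of that channel. The limit lay between 699 and 978 intensity units. Between 23.5% and 34.8% of all probes exceeded it in a channel, with the higher share in the Cy3 channel on each of the 4 arrays. All 11 probes entered the fit, which took probes above the limit on at least 2 arrays in either condition. Of the 11, 6 were over the limit in every channel of every array, against 16.4% of all probes, and these were the probe of GATA2, the probe of GATA3, TEAD4 probes 1 and 2, and both probes of TFAP2C. CDX2 lay close to the limit with each of its 3 probes. In pools of whole blastocysts, fewer cells of a type and less RNA per cell cannot be told apart.

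**Figure D1:**
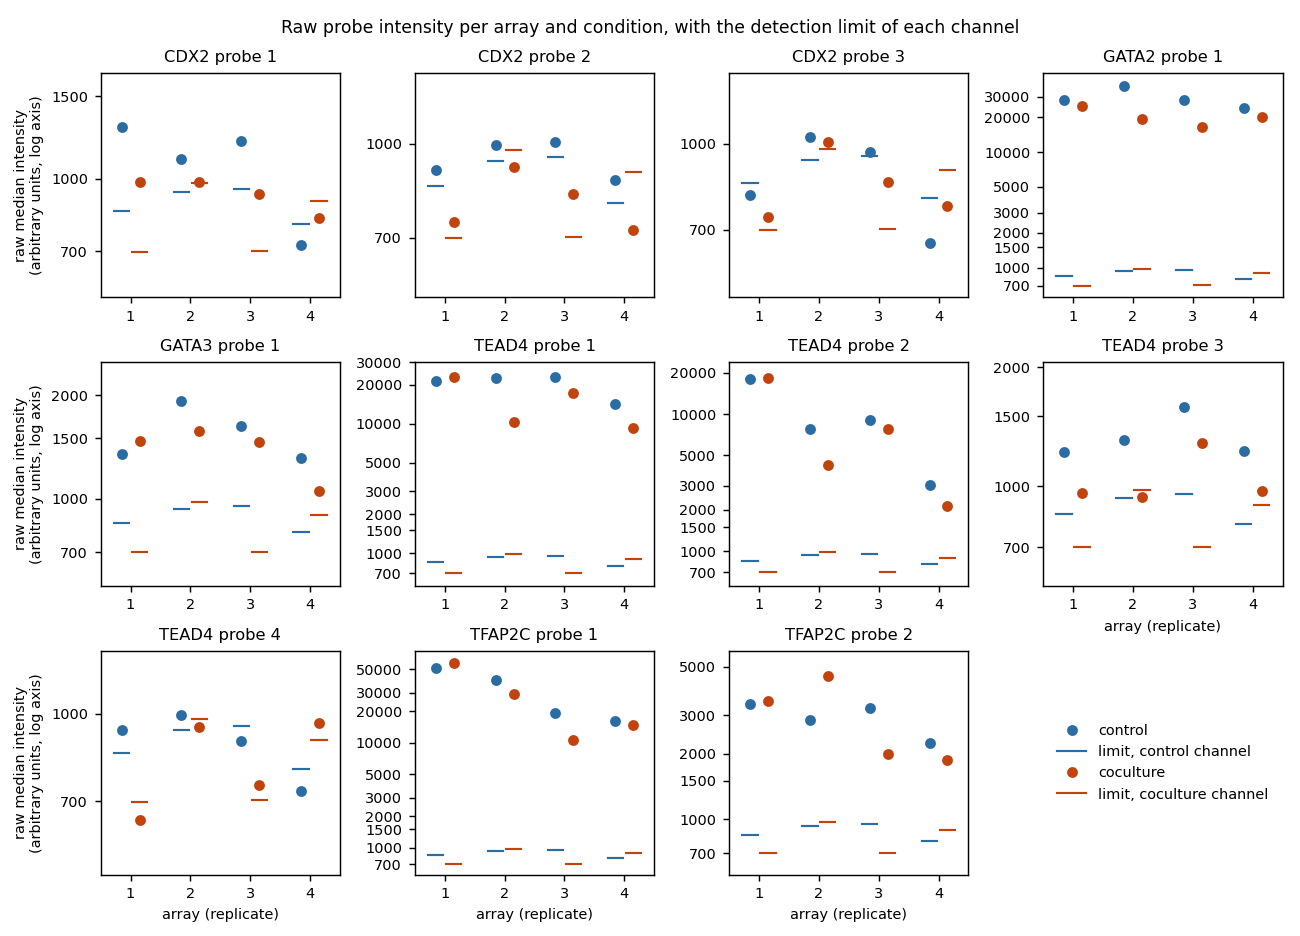
Raw median intensity (log axis, arbitrary units) of each of the 11 probes on arrays 1 to 4, control in blue and coculture in red. Short lines mark the detection limit of the channel the point was read in. GATA2, TEAD4 probe 1 and TFAP2C probe 1 stand far above it on every array, CDX2 and TEAD4 probe 4 close to it.

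No probe of the 5 genes passed the test of coculture against control. The brightest probe of each of the 5 genes nevertheless had a fitted ratio below 0, that is, lower in coculture, from a log2 ratio of -0.14 for GATA3 to -0.48 for GATA2; GATA3 lay above 0 without replicate 2 or replicate 4. Of all 11 probes, 8 had a ratio below 0 and 3 above, where 49.6% of all 15631 tested probes lay below 0. For brightest probes, one per gene, the share below 0 over 5353 genes was 51.2%. The median over the 5 genes was -0.27, and over all tested genes -0.01. limma called 0 of the 15631 probes (0%) at an adjusted p under 0.05, and 1228 (7.86%) had an unadjusted p under 0.05. Among the 11, the unadjusted p was under 0.05 for 2, GATA2 and TEAD4 probe 3, both lower in coculture. Over all tested probes 3.7% had such a p with a lower level in coculture, and 4.16% with a higher one. The ratio was below 0 on all 4 arrays for 3 of the 11 (CDX2 probe 1, GATA2 and TEAD4 probe 3), against 6.88% of tested probes, and above 0 on all 4 for none, against 6.29%.

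**Figure D2:**
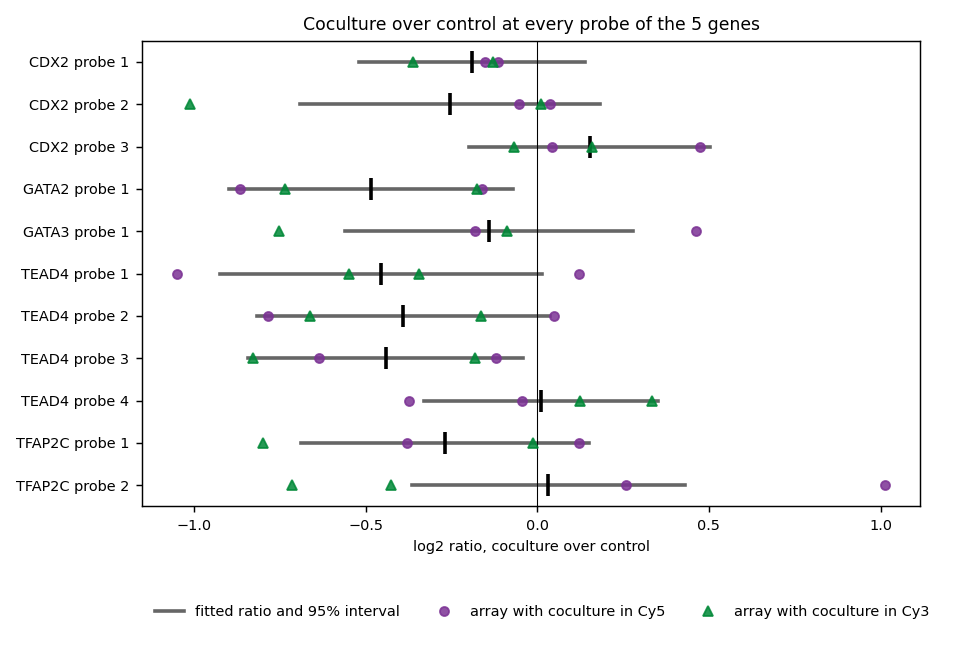
Log2 ratio of coculture over control for the 11 probes. Circles are the arrays with coculture in Cy5, triangles those with coculture in Cy3, and each bar is the fitted ratio with its 95% interval. Only the intervals of GATA2 and TEAD4 probe 3 lie wholly below 0, ending at -0.07 and -0.04, and neither passed after adjustment.

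TEAD4, the DNA-binding partner of YAP1 and WWTR1, stands at the head of the cascade. Its brightest probe (EMPV1_21983) read 23087, 10236, 17235 and 9317 intensity units in coculture on replicates 1 to 4. In control it read 21339, 22571, 22875 and 14230. The raw coculture reading was the higher on replicate 1 and the lower on replicates 2 to 4, and the ranges of the conditions overlap. After normalization the log2 ratios were 0.12, -1.05, -0.34 and -0.55. The fitted ratio was -0.45, a level in coculture 0.73 times that in control (95% interval 0.53 to 1.01), with a limma adjusted p of 0.64. Replicate 2 weighs on this value: without it the ratio was -0.16, and without replicate 1 it was -0.75.

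The other probes of TEAD4 did not all give the same reading. Probe 2 (EMPV1_22697) had array ratios of 0.05, -0.78, -0.16 and -0.66 and a fitted ratio of -0.39 (95% interval -0.82 to 0.04, limma adjusted p = 0.66), or -0.18 without replicate 2 and -0.60 without replicate 1. Like probe 1, it was above 0 on replicate 1 and below 0 on the others. Probe 3 (EMPV1_01400) was dimmer, with raw readings of 937 to 1283 in coculture and 1221 to 1585 in control. It had ratios of -0.12, -0.64, -0.18 and -0.83, all below 0, and a fitted ratio of -0.44 (-0.84 to -0.04, limma adjusted p = 0.63), or -0.28 without replicate 4. On replicate 2 its coculture channel was below the detection limit. Without background correction its ratio was -0.29. Probe 4 (EMPV1_15509) exceeded the limit on 2 arrays in each condition, read 648 to 996, and had a fitted ratio of 0.01 (-0.33 to 0.35). The mean ratio over the 4 probes was -0.32.

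CDX2, the homeobox factor downstream of TEAD4, was read near the limit throughout. Probe 1 (EMPV1_18079) gave 985, 983, 925 and 825 intensity units in coculture. It gave 1291, 1103, 1206 and 723 in control. These values were between 0.90 and 1.52 times the limit of their channel, and on replicate 4 both conditions were below it. The log2 ratios were -0.15, -0.12, -0.36 and -0.13, all below 0 and within a narrow band. The fitted ratio was -0.19 (95% interval -0.52 to 0.14, limma adjusted p = 0.77), an interval that spans 0.70 to 1.10 times the control level. When spots were summarized by mean pixel values the ratio was -0.04, and without background correction it was -0.13.

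The remaining CDX2 probes disagreed with each other. Probe 2 (EMPV1_10516) had ratios of 0.04, -0.05, 0.01 and -1.01, so that its fitted -0.25 (95% interval -0.69 to 0.18) came from replicate 4 and was 0.0013 without it. On that array its coculture channel was below the limit. Probe 3 (EMPV1_34227) had ratios of 0.47, 0.04, 0.16 and -0.07 and a fitted ratio of 0.15 (-0.20 to 0.50), the opposite sign. Without replicate 1 it was 0.04, and without replicate 2 it was 0.26. With mean pixel intensities probes 2 and 3 stood at -0.05 and 0.03, and the mean over the 3 probes from median pixel values was -0.10. All 3 probes carry the same CDX2 transcript accession in the platform table.

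GATA2 was the member with the lowest ratio and with the least overlap between the conditions. Its single probe (EMPV1_36906) read 24895, 19147, 16467 and 19994 intensity units in coculture. In control it read 27962, 36938, 28362 and 24227. Every coculture reading was below the control reading of its array. After normalization the coculture level was 14.28 ± 0.20 and the control level 14.76 ± 0.17 on the log2 scale (mean ± SD, n = 4 each). The coculture levels, 14.09 to 14.46, did not overlap the control levels, 14.62 to 14.95. Among the 11 probes GATA2 was the only one without overlap, and 0.889% of tested probes had every coculture level below every control level (0.627% the reverse). The array ratios were -0.16, -0.87, -0.73 and -0.18, large on replicates 2 and 3 and small on replicates 1 and 4, so that each dye assignment held a large and a small value. The fitted ratio was -0.48, a level in coculture 0.71 times that in control (95% interval 0.54 to 0.95). The unadjusted p was 0.027 and the limma adjusted p 0.63, so it did not pass. Without replicate 2 the ratio was -0.31. In the authors' deposited table, turned to coculture over control, the mean of the 4 arrays was -0.53.

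GATA3, the other GATA factor, showed no common direction. Its probe (EMPV1_25024) read 1476, 1572, 1459 and 1056 in coculture, and 1347, 1922, 1633 and 1315 in control. The ratios were 0.46, -0.18, -0.09 and -0.75, with the highest on replicate 1 and the lowest on replicate 4. The fitted ratio was -0.14 (95% interval -0.56 to 0.28, limma adjusted p = 0.88), and it turned to 0.02 without replicate 2 and to 0.03 without replicate 4. The mean was 0.14 on the arrays with coculture in Cy5 and -0.42 on those with coculture in Cy3.

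TFAP2C was read by probes that did not go together. Probe 1 (EMPV1_42404) read 57678, 28855, 10605 and 14927 intensity units in coculture. In control it read 51403, 39574, 19112 and 16095. The log2 ratios were 0.12, -0.38, -0.80 and -0.01, and the fitted ratio was -0.27 (95% interval -0.69 to 0.15, limma adjusted p = 0.74). Replicate 3 lay lowest, and without it the ratio was -0.07. Without replicate 2 it was -0.14, and without replicate 4 it was -0.46. Probe 2 (EMPV1_37351) had ratios of 0.26, 1.01, -0.71 and -0.43, above 0 on both arrays with coculture in Cy5 and below 0 on both with coculture in Cy3. Its fitted ratio was 0.03 (-0.36 to 0.43), and its Cy5 reading exceeded its Cy3 reading by a fitted dye effect of 0.60 on the log2 scale. The mean ratio over both probes was -0.12.

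**Figure D3:**
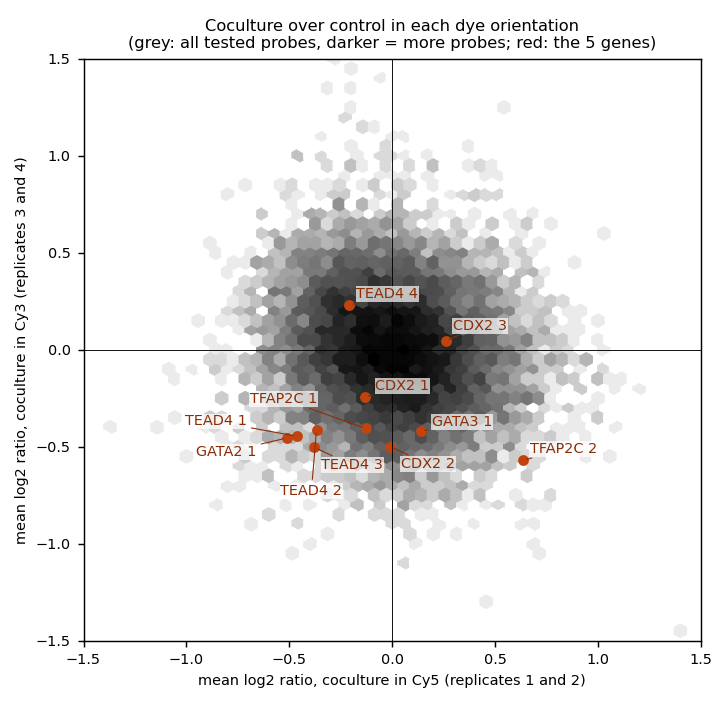
Mean log2 ratio of coculture over control on the arrays with coculture in Cy5 (horizontal) and in Cy3 (vertical), for all 15631 tested probes (grey, darker where more probes lie) and the 11 probes of the 5 genes (red, gene and probe number). GATA2, TEAD4 probes 1 to 3, TFAP2C probe 1 and CDX2 probes 1 and 2 lie in the quadrant below 0 on both axes, and TFAP2C probe 2, TEAD4 probe 4 and GATA3 have means of opposite sign.

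The dye assignments were compared for each probe. Means of opposite sign in the 2 assignments occurred for 3 of the 11 probes, GATA3, TEAD4 probe 4 and TFAP2C probe 2, against 54.7% of tested probes. GATA2 had means of -0.51 and -0.46, and TEAD4 probe 1 had means of -0.46 and -0.45. TEAD4 probes 2 and 3 stood at -0.37 and -0.38 with coculture in Cy5, and at -0.41 and -0.50 with coculture in Cy3. Each mean rests on 2 arrays.

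For every probe of the 5 genes except that of GATA2, the range between the highest and lowest array exceeded the size of the fitted difference between conditions. Over all tested probes the median range was 0.57 on the log2 scale, and the 5th to 95th percentile of fitted ratios ran from -0.35 to 0.37. The share of all tested probes with a range above their fitted difference was not computed, so this is not read as a trait of the 5 genes. The widest ranges among the members were those of TEAD4 probe 2 and TFAP2C probe 1. TEAD4 probe 2 read 18447, 4256, 7764 and 2130 intensity units in coculture on replicates 1 to 4. In control it read 18080, 7796, 9097 and 3046. Both conditions had the same order of arrays, with replicate 1 highest, then 3, 2 and 4. The normalized level, averaged over both channels of an array, differed 6.88-fold between the highest and the lowest array, a range of 2.78 on the log2 scale, where the fitted difference between conditions was -0.39. For TFAP2C probe 1 the range was 1.75, or 3.37-fold, with replicate 1 highest in both conditions. Ranges of at least that size were found for 0.115% of tested probes in the case of TEAD4 probe 2 and for 2.6% in that of TFAP2C probe 1. A range of 1 or more occurred for 2 of the 11 probes, a share near the 17.5% of all tested probes. TEAD4 probe 1 had a range of 0.76, so this feature of probe 2 was not shared in size by the brighter probe of the same gene. GATA2 had a range of 0.06.

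**Figure D4:**
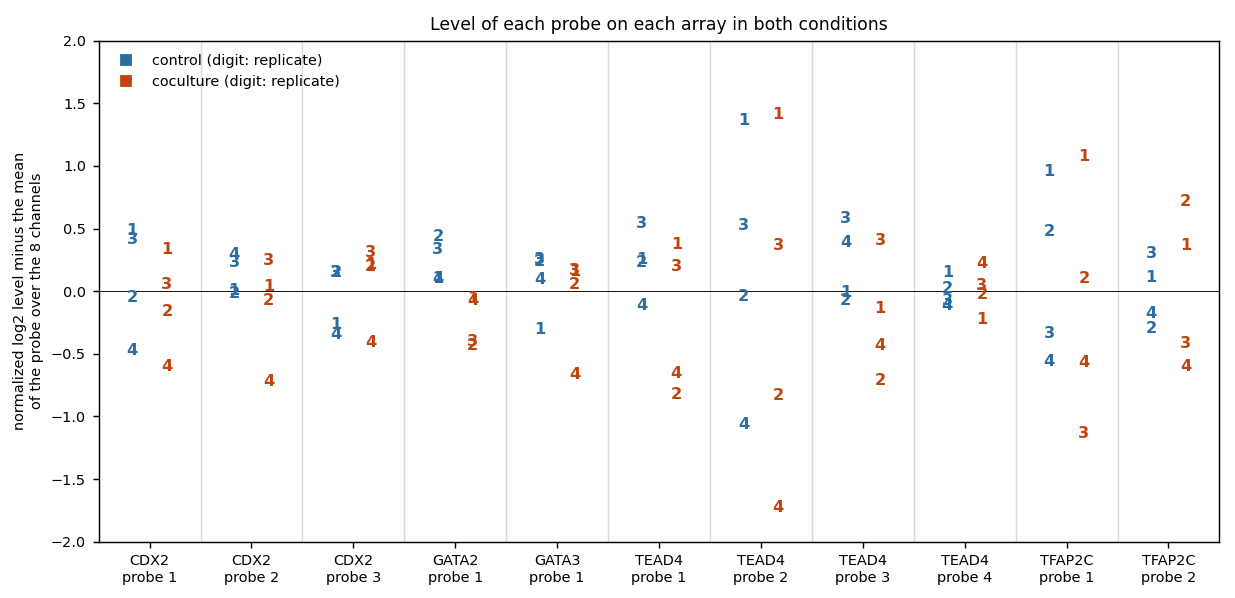
Normalized log2 level of each probe on each array, minus the mean of the probe over its 8 channel values; digits give the replicate, blue control and red coculture. For TEAD4 probe 2 and TFAP2C probe 1 the same replicate stands at the top in both conditions, while for GATA2 all coculture values lie below all control values.

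The paralogues of the 5 factors were mostly below the detection limit, which 23.5% to 34.8% of all probes exceeded in a channel. Of 13 paralogues (CDX1 and CDX4, the other GATA factors, TEAD1 to TEAD3 and the other AP-2 genes), 6 had a probe named here. The probes of CDX1, GATA5, TEAD1, TFAP2A and TFAP2D exceeded the detection limit on no array of either condition. GATA6, a hypoblast factor, exceeded it in all 8 channels. Its array ratios were 0.63, -0.20, 0.37 and 0.55. The fitted ratio of GATA6 was 0.34 (95% interval -0.07 to 0.74, limma adjusted p = 0.68), the opposite sign to GATA2 and GATA3. The intervals of GATA6 and GATA3 both include 0.

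Of 25 genes of the Hippo pathway and of cell polarity, which act upstream of TEAD4, 9 were tested and 0 passed in either direction. Their median ratio was -0.02, with 5 below 0. WWTR1, the coactivator that binds TEAD factors, had ratios of -0.17, -0.81, -0.47 and -0.11 on replicates 1 to 4 and a fitted ratio of -0.39 (95% interval -0.78 to -0.0045, limma adjusted p = 0.63). It was below 0 on all 4 arrays; its other probe, too dim to be tested, stood at 0.22. YAP1 exceeded the limit on 1 control array only and was not tested, and LATS2 had no probe named here. AMOTL2, a scaffold that holds YAP1 outside the nucleus, was above the limit on no control array and on 2 coculture arrays. Its probe thus entered the test only through the coculture condition. The fitted ratio was 0.48 (95% interval 0.09 to 0.87, limma adjusted p = 0.63). A comparison of mean signals, which ignores how arrays varied, put the level in coculture at 1.35-fold that in control. It sets the mean normalized signal of the brighter condition against that of the dimmer one. The dimmer signal was first raised on each array to at least the lowest signal of any detected probe. The brighter mean includes the coculture arrays below the limit, so 1.35-fold is not a lower bound. The array ratios of AMOTL2 were -0.16, -0.02, 1.42 and 0.68, above 0 only on the arrays with coculture in Cy3. ROCK2, a kinase of actomyosin contraction, stood at 0.43 (0.04 to 0.82) by the 1 of its 5 probes that was tested. The other 4, too dim to be tested, stood at -0.51, -0.02, -0.11 and -0.12, the opposite sign.

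Other transcription factors of trophoblast were often below detection, as most probes of the array were. Over the whole array, 23.5% to 34.8% of probes exceeded the limit in a channel, and 15631 of 43794 were tested. Of 31 listed factors, 28 had a probe named here, 14 of these exceeded the limit in no channel, and 7 were tested. None passed; their median was 0.03, with 2 below 0. EOMES, a T-box factor of mouse trophoblast stem cells, exceeded the limit on 1 coculture array, and HAND1, a factor of trophoblast giant cells in the mouse, on none. KLF5, which supports both early lineages in the mouse, was above the limit everywhere and stood at 0.05 (95% interval -0.28 to 0.39). ELF3 stood at -0.17 with its other probe at 0.20, and SMARCA4, a chromatin remodelling ATPase, at 0.19.

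Of 32 epithelial and secretory genes of the trophectoderm, 17 were tested and 0 passed. Their median was -0.14, with 12 below 0. The keratins KRT8 and KRT18, which mark this epithelium, were above the limit in all 8 channels and stood at 0.07 (95% interval -0.25 to 0.40) and 0.08 (-0.24 to 0.41), and the other probe of each at 0.07 and 0.08. OCLN, a tight junction protein, stood at -0.45 (-0.80 to -0.10, limma adjusted p = 0.63), its other probe at -0.09. FGFR2, a receptor for fibroblast growth factors, stood at 0.41 and its other tested probe at -0.02. CDH1 had no probe named here.

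POU5F1, the pluripotency factor whose gene CDX2 represses in the mouse, was compared on the same arrays. Its brighter probe had ratios of 0.08, -0.37, -0.47 and -0.75 and a fitted ratio of -0.38 (95% interval -0.73 to -0.02, limma adjusted p = 0.63), and its other probe stood at -0.22. The log2 ratio of CDX2 probe 1 minus that of POU5F1 was -0.23, 0.25, 0.11 and 0.62 on the 4 arrays. Its mean was 0.19 ± 0.35 (SD, n = 4), with a two-sided exact permutation p of 0.38, adjusted p = 0.94 over 5 such differences. For GATA2 the difference was -0.11 ± 0.47 (SD, n = 4, exact permutation p = 0.75). It was 0.24 ± 0.19 for GATA3 (exact permutation p = 0.25), -0.08 ± 0.41 for TEAD4 probe 1 and 0.11 ± 0.45 for TFAP2C probe 1 (exact permutation p = 0.75). With 4 arrays, the smallest p this test allows is 0.125, so no difference could reach a p under 0.05. Of 19 genes of the epiblast and inner cell mass, 6 were tested, with a median of -0.09 and 5 below 0. SOX15 was above the limit on no control array and on 2 coculture arrays, so its probe entered the test only through the coculture condition. Its fitted ratio was 0.37 (95% interval -0.17 to 0.91, limma adjusted p = 0.72), an interval that includes 0. The array ratios were -0.24, 0.06, 1.56 and 0.08, so the rise came from replicate 3. The comparison of mean signals, formed as for AMOTL2, gave 1.25-fold, which is likewise not a lower bound and ignores how arrays varied. SOX2 went over the limit on 1 array in each condition, too few for the test, and NANOG had no probe named here.

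**Figure D5:**
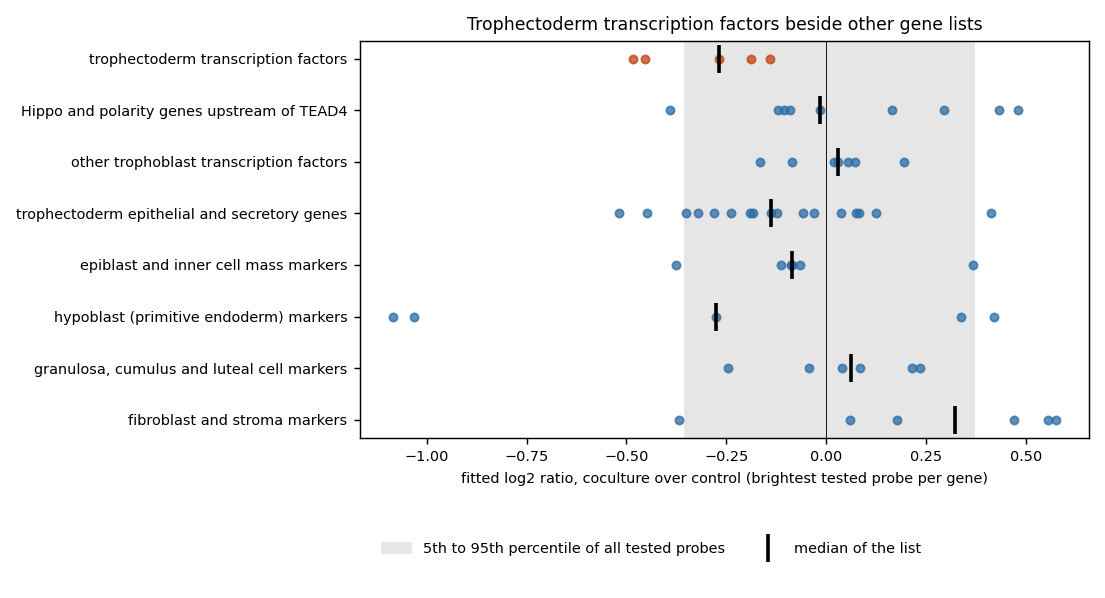
Fitted log2 ratio of coculture over control for the brightest tested probe of each gene, by list, with the median of each list as a black bar. The 5 trophectoderm transcription factors (red) lie below 0, and 3 of them lie inside the grey band, -0.35 to 0.37, that holds the 5th to 95th percentile of all tested probes.

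Markers of other cells were read on the same arrays. Of 18 markers of granulosa, cumulus and luteal cells, 6 were tested, with a median of 0.06 and 2 below 0, and 0 of them were over the limit in all 8 channels. Of the 15 with a probe named here, 5, FSHR among them, were over it in none. STAR stood at 0.08, AMH at 0.21 (its other probe at 0.26) and NR5A1 at -0.25 (its other, untested probe at 0.18). The summed normalized level of these 6 ran from 2749 to 3543 intensity units in coculture and from 2587 to 3092 in control. On replicates 1 to 4 it was 3088, 3171, 2749 and 3543 in coculture. In control it was 3034, 3092, 2587 and 3092, below the coculture sum on each array. The sums include signals below the limit. HAS2 entered the test only through the coculture condition, and NR5A1 only through the control condition. Of the fibroblast and stroma markers 5 of 6 lay above 0, with a median of 0.32. Their summed level ran from 5345 to 10943 in coculture and from 4199 to 6901 in control. Array by array, it was lower in coculture on replicate 1 and higher on replicates 2 to 4. ACTA2, among the 6, entered the test only through the coculture condition. The sums of both lists were not tested. TAGLN stood at 0.55 (its other, untested probe at -0.02) and DCN at -0.37. COL1A1 stood at 0.06, its other tested probe at -0.22 and its untested one at 0.11. None of these passed. Of the hypoblast markers 5 were tested, with 3 below 0 and a median of -0.28. APOA1 stood at -1.08, from array ratios of -2.15, -2.54, -0.03 and 0.39, so that it was far below 0 only on the arrays with coculture in Cy5. APOE stood at -1.03 by its brightest probe, while its other tested probe stood at -0.0017 and its untested one at -0.04. SOX17 had no probe named here. Whether the cell make-up of the pools has a part in the ratios of the 5 factors was not tested.

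Genes with the most similar ratios were sought over the 4 arrays among 5329 genes. Likeness was the root mean square difference of the 4 log2 ratios, taken for the brightest tested probe of each gene only. For GATA2 the closest were CHCHD10 (difference 0.06), STS, steroid sulphatase (0.06), and ETFB, of the electron transfer flavoprotein (0.08). STS had ratios of -0.21, -0.95, -0.78 and -0.13, large on the same replicates as GATA2. Its other probes, too dim to be tested, stood at -0.04 and -0.03, and the other tested probes of ETFB at -0.32 and -0.08. Within 0.25 of GATA2 lay 33 genes. For TEAD4 the closest were ST14, the membrane protease matriptase (0.10), SLC39A3, a zinc transporter (0.14), and FBXO18 (0.15), and 42 genes lay within 0.25. ST14 had ratios of 0.10, -1.05, -0.29 and -0.36. For TFAP2C these were MYCBP2 (0.09), PAN3 (0.10) and HARS (0.10). Untested probes of MYCBP2 stood at -0.0053 and 0.09, and those of PAN3 at 0.33, 0.22 and -0.04. For CDX2, whose ratios were small, 848 genes lay within 0.25, the closest being HIF1AN, HNRNPD and PRDX6 (0.05 to 0.06). The other tested probe of HNRNPD stood at -0.22, and those of PRDX6 at -0.09 and 0.13. For GATA3 they included FAM81A and RPL10L (0.10 each); the closest probe carries the symbol of a microRNA that was not matched by identifier, and no value is given for it. No test was made of these likenesses, which rest on 4 arrays.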

How the data were processed

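Intensities are the authors' deposited raw median and mean pixel values and local backgrounds per spot, in Cy3 and Cy5, per the file headers. Scanner and image software: not given in the sources used here. Log2 ratios were also deposited by the authors, made with limma per the submitters' processing notes, no version given. Their columns followed Cy5 over Cy3 on every array (Pearson r across probes of 0.886 to 0.932 with the values computed here), so replicates 3 and 4 were turned. Column medians were -0.0133, -0.013, -0.000395 and -0.0167. The exact centring stays unknown.

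Median intensities were corrected with normexp (offset 50) and normalized by loess within arrays, with weight 0 for controls (limma 3.58.1 under R 4.3.3). Ignored spots (74 to 150 probes per array) had no value. lmFit and eBayes used a dye intercept and a coculture term, leaving 2 residual degrees of freedom and 6.03 prior ones. Probes above the limit on at least 2 arrays of a condition, with values on at least 3, were tested (15631), with Benjamini-Hochberg adjustment. The median half-width of the 95% interval was 0.36. The number of arrays limits the precision. Levels per channel followed loess and Aquantile. The fit was tested on simulated data.

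The genes, lists and tests were chosen with earlier results of these data known. Named beside the 5 genes were tested paralogues, the 2 genes of smallest p in each list, a fixed set of markers and the 3 closest genes per member. Symbols came from the platform table, updated through RefSeq names of Sscrofa11.1. The comparison with POU5F1 and the ranges between arrays were added after the values were seen. The 16 columns of trimmed means in the 4 array files were not used. Alternatives changed the background correction, spot summary, normalization, dye term, filter, moderation, model, probe summary or replicates.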

Additional observations from a re-analysis of the deposited data

Results flagged for a closer look

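In 4 of the 33 groups of 4 values looked at, a single array stood apart from the other three by the gap to its nearest neighbour as a share of the range, where chance flags about 1 in 20 groups. CDX2 probe 1 had its lowest ratio, -0.36, on replicate 3, and CDX2 probe 2 its lowest ratio, -1.01, on replicate 4. The coculture level of CDX2 probe 3 was lowest on replicate 4, at 8.49 on the log2 scale, and that of GATA3 too, at 9.40. Of these 4 spots, the coculture channels of CDX2 probes 2 and 3 on replicate 4 were below the detection limit, and those of GATA3 on replicate 4 and of CDX2 probe 1 on replicate 3 were above it. For a pair of probes the ratios on arrays of opposite dye assignment had opposite signs. TFAP2C probe 2 had a mean ratio of 0.64 with coculture in Cy5 and of -0.57 with coculture in Cy3. TEAD4 probe 4 had means of -0.21 and 0.23. These differences between assignments were not tested, and dye and pools cannot be told apart in them.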

How the results depend on the processing

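Under the 15 alternatives that give a count, the number of probes with an adjusted p under 0.05 was 0. Averaging a gene's probes gives ratios only. The number with an unadjusted p under 0.05, 1228 of 15631, was 2634 of 43725 with no filter, 641 of 7179 for probes over the limit in all 8 channels, 815 of 15631 without the dye term, 1898 of 15552 in the separate-channel fit and 608 of 15581 without replicate 2. The ratios of CDX2 probe 1, GATA2, TEAD4 probes 1 to 3 and TFAP2C probe 1 were below 0 under every alternative that gave a value. Not all of these alternatives could change a sign. Leaving out the dye term, Aquantile, the changed filters, the changed moderation and the separate-channel fit returned the ratios of the main fit wherever they gave a value. Without 1 replicate the ranges were -0.25 to -0.13 for CDX2 probe 1, -0.66 to -0.31 for GATA2, -0.75 to -0.16 for TEAD4 probe 1, -0.46 to -0.07 for TFAP2C probe 1, -0.31 to 0.0262 for GATA3, -0.51 to 0.0013 for CDX2 probe 2, 0.04 to 0.26 for CDX2 probe 3, -0.60 to -0.18 for TEAD4 probe 2, -0.60 to -0.28 for TEAD4 probe 3, -0.0719 to 0.0922 for TEAD4 probe 4 and -0.16 to 0.22 for TFAP2C probe 2. These fits leave 1 residual degree of freedom, the lone array of a dye assignment being assumed to vary like the others. TEAD4 probe 4 also stood at -0.0108 without background correction, -0.0130 with mean pixel intensities and -0.0611 with median centring, and TFAP2C probe 2 at -0.0551 with median centring. The cause of these sign changes was not tested; the 95% intervals of both probes include 0. Adjusted p-values over all alternatives ran from 0.30 to 0.97 for GATA2 and from 0.38 to 0.98 for TEAD4 probe 1. The probes of CDX2 and TEAD4 probes 3 and 4 have no value when a probe must exceed the limit in all 8 channels, so that 5 member probes lay below 0 there. The fit is itself paired, since each array holds both conditions and enters as 1 ratio. CDX2 probe 1, near the limit, ran from -0.22 with median centring to -0.0407 with mean pixel intensities. Signals near the background limit what CDX2 and TEAD4 probes 3 and 4 can show.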
